A study of Mus musculus with 6 samples.

Results

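The autophagy and lysosome genes are 38 named genes, taken by symbol from a table of 24421 genes and all found there. They comprise 27 genes of the autophagy core, the transcription factor genes Tfeb and Tfe3, and 9 lysosomal genes. RNA was sequenced from E14 cells, a mouse embryonic stem cell line, with 2 libraries from wild-type cells and 2 from Pml-/- cells. Pml encodes the scaffold of PML nuclear bodies. Every library came from cells exposed to 10 µM paraquat, a redox cycler, for 15 h, in serum medium with leukemia inhibitory factor, CHIR99021 and PD0325901. The comparison therefore concerns the genotype under paraquat and does not measure the response to paraquat. How the Pml allele was made, and whether the knockout is a single clone, is not stated in the labels. The other 2 samples of the series, PML-associated chromatin from APEX-PML knockin cells given the same paraquat treatment, were not analysed here.

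Autophagy is the route by which a cell encloses cytoplasm in a double membrane, the autophagosome, and delivers it to the lysosome. A kinase complex built on ULK1 starts the process, a lipid kinase complex built on PIK3C3 (VPS34) marks the membrane with PI3P, and a pair of ubiquitin-like conjugation systems attaches ATG8 proteins (the LC3 and GABARAP families) to the membrane. The lysosome then degrades the cargo with acid hydrolases, and the factors TFEB and TFE3 switch on many genes of both compartments when they enter the nucleus.

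Levels are read counts scaled to the library total (CPM), given for wild-type libraries 1 and 2 and knockout libraries 1 and 2 in that order, or as the mean ± SD (n = 2). Each difference is a log2 fold change, knockout minus wild type, computed from log2(CPM + 1), so that changes of low genes come out too small. A gene was called when its Benjamini-Hochberg adjusted p from limma, over the 12710 genes averaging 1 CPM or more, was under 0.05. Whether the libraries of a genotype stem from separate cultures is not stated, and the p-values then measure the spread between these libraries alone, which may be technical. The library kit entry of wild-type library 2 names a DNA kit, while the other 3 entries name an RNA kit. In these bulk samples, fewer cells of a type and less RNA per cell cannot be told apart. CPM is not scaled for transcript length, so levels of different genes are not on the same scale.

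The libraries held 31384794, 44130093, 38150397 and 43715807 reads. Pml itself had 238, 228, 78.7 and 89.7 CPM, so transcript from the gene remained in the libraries labelled knockout. The 10 stem cell markers examined, Pou5f1 and Nanog among them, summed to 7113, 7168, 7226 and 7265 CPM, higher in both knockout libraries. Single markers did differ: limma called 4 of the 10 (40%, against 5.41% of all tested genes). Zfp42 (-0.27) and Utf1 (-0.43) were lower and Tfcp2l1 (0.29) and Tdgf1 (0.17) higher in the knockout. The part of these differences in the results below was not tested. The 8 fibroblast markers summed to between 13.7 and 15.7 CPM and the 6 primitive endoderm markers to between 7.34 and 10.4 CPM. The groups of both sums overlapped. In the 3 fibroblast markers that were tested the groups were apart, Col1a1 and Thy1 lower and Pdgfrb higher in the knockout, with 0 called. Of 6 macrophage markers, which matter here because macrophages are rich in lysosomes, 4 had no read in any library. Cd68, which encodes a lysosomal membrane protein, made up nearly all of their sum of 17.98 to 21.5 CPM.

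Most of the 38 genes differed little between the genotypes. All 38 passed the filter on low values, and 3 were called, with Ulk1 and Atg13 higher and Gabarapl2 lower in the knockout. The called share of all tested genes was 5.41% (687 of 12710), with 1.95% higher and 3.45% lower, so 3 of 38 is near the background. The 3 called genes all belong to the autophagy core, where 3 of 27 passed, and 0 of 9 lysosomal genes and 0 of 2 transcription factor genes did. At an unadjusted p under 0.05 there were 10 of 38 members (6 core and 4 lysosomal), against 19.3% of all tested genes. The median log2 fold change was 0.00 over the members, from -0.32 to 0.21, and 0.00 over all tested genes. By size alone, the median absolute log2 fold change was 0.10 in the members and 0.09 in all tested genes.

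The size of the differences that were not called can be bounded. Of those 35 members, 30 had a 95% interval inside 1.3-fold in both directions, and all 35 had one inside 1.5-fold. These intervals are from limma, not adjusted for multiple tests, and hold for CPM + 1. For CPM itself the bounds are wider in low genes such as Atg10. The libraries of the groups did not overlap in 23 members, with 13 higher and 10 lower in the knockout. Among all tested genes 49.3% did not overlap, with 23.8% higher and 25.5% lower. Fewer members passed with edgeR, here or in the authors' deposited table, while a model with a term for replicate number (the replicate block below) added Atg7. With edgeR's quasi-likelihood test on the reads recovered from the CPM values, which called 4.19% of 14782 genes, 1 of the 38 members passed, Gabarapl2. In the authors' deposited table, where 3.8% of genes had a false discovery rate under 0.05, Gabarapl2 and Atg13 passed.

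**Figure D1:**
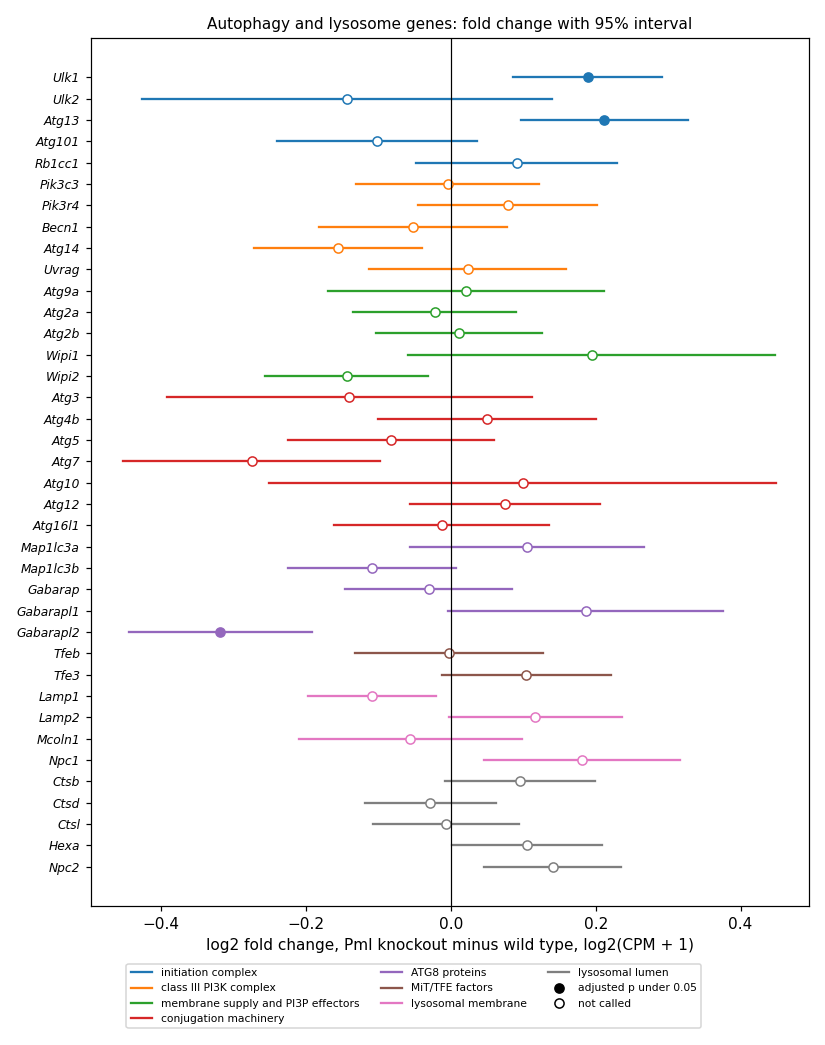
Log2 fold change (Pml knockout minus wild type, log2(CPM + 1) scale, horizontal axis) of the 38 genes, coloured by role, with bars giving the 95% interval from limma and n = 2 libraries per group. Filled points mark the 3 genes with an adjusted p under 0.05: Ulk1 and Atg13 lie to the right of 0 and Gabarapl2 to the left.

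The initiation complex held both of the members that rose. Ulk1, the protein kinase that starts autophagosome formation when mTORC1 releases it, had 359 and 393 CPM in the wild-type libraries against 434 and 422 CPM in the knockout libraries. Both knockout libraries lay above both wild-type libraries, and the log2 fold change was 0.19 (SE 0.048, 95% interval 0.09 to 0.29, limma adjusted p = 0.0330), a 1.14-fold difference in mean CPM. Atg13, the adaptor that ties ULK1 to the rest of the complex, had 114 and 125 CPM against 137 and 139 CPM. It too was higher in both knockout libraries, by 0.21 (SE 0.054, 95% interval 0.10 to 0.33, limma adjusted p = 0.0333), or 1.16-fold.

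Wild-type library 1 was the lowest of the 4 for both genes, and their calls rested on it. Without it the log2 fold change of Ulk1 was 0.12 (adjusted p = 0.388) and that of Atg13 was 0.14 (adjusted p = 0.361). The Ulk1 call also ended without knockout library 1 (adjusted p = 0.0691), and the Atg13 call ended without knockout library 1 (adjusted p = 0.0507) or knockout library 2 (adjusted p = 0.12). Under TMM scaling the values were 0.0518 for Ulk1 and 0.0506 for Atg13, and with edgeR 0.0552 and 0.0558, all adjusted p. The authors' deposited table gives false discovery rates of 0.0776 for Ulk1 and 0.0497 for Atg13.

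The other 3 genes of the complex were not called. Rb1cc1, which encodes the scaffold FIP200, had 45.6, 48.8, 49.3 and 51.3 CPM (log2 fold change 0.09, adjusted p = 0.492). Atg101, whose product stabilises ATG13, had 53.0, 50.4, 49.5 and 46.7 CPM (-0.10, adjusted p = 0.429). Ulk2, the paralog of Ulk1, was a low gene here at 5.64, 5.26, 5.09 and 4.60 CPM (-0.14, adjusted p = 0.617), with an interval from -0.43 to 0.14. In each of these 3 genes the groups did not overlap, in differing directions, at sizes that limma did not call. Among all tested genes 49.3% did not overlap.

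None of the 5 genes of the class III PI3-kinase complex was called, with 1 at an unadjusted p under 0.05 and 0 called by edgeR. The catalytic subunit gene Pik3c3 was nearly the same in all libraries, at 59.97, 60.1, 61.2 and 58.6 CPM (log2 fold change 0.00, 95% interval -0.13 to 0.12). Its regulatory partner Pik3r4 (VPS15) had 80.6, 82.9, 90.3 and 82.6 CPM, and Becn1, the beclin scaffold, had 69.9, 70.9, 71.1 and 64.7 CPM. In all 3 of these genes the groups overlapped. Atg14, the subunit that directs the kinase to forming autophagosomes, averaged 79.9 ± 0.25 CPM in wild type and 71.6 ± 1.17 CPM without Pml, 1.12-fold lower, and was not called (-0.16, SE 0.055, adjusted p = 0.119). Uvrag, the alternative subunit that acts on endosomes, had 44.0, 44.3, 44.7 and 45.1 CPM (0.02, adjusted p = 0.889).

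Genes for membrane supply and for reading PI3P also gave 0 calls among 5, with 1 at an unadjusted p under 0.05 and 0 by edgeR. ATG2A and ATG2B carry lipid into the growing membrane, and their genes had fold changes of -0.02 and 0.01 with intervals inside ±0.14. Atg9a, which encodes the lipid scramblase of the vesicles that seed the membrane, had 22.2, 21.6, 20.8 and 23.7 CPM (0.02, adjusted p = 0.931). Of the PI3P-binding WIPI genes, Wipi2, which recruits the conjugation machinery, had 131, 122, 117 and 112 CPM (-0.14, adjusted p = 0.136). Wipi1 had 7.04, 7.02, 7.86 and 8.53 CPM (0.19, adjusted p = 0.407). The groups of both WIPI genes were apart, Wipi2 lower and Wipi1 higher in the knockout, and neither passed the test.

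The 7 genes of the conjugation machinery gave 0 calls, with 1 at an unadjusted p under 0.05 and 0 by edgeR. That gene was Atg7, the E1-like enzyme that activates both ATG12 and the ATG8 proteins. It had 26.2 and 27.8 CPM in the wild-type libraries against 21.3 and 23.0 CPM in the knockout libraries, 1.22-fold lower without overlap. The log2 fold change of -0.28 (SE 0.083, 95% interval -0.45 to -0.10) had an adjusted p of 0.0710. Atg3, the E2-like enzyme for the ATG8 proteins, had 32.8 CPM in wild-type library 1 and between 23.1 and 25.0 CPM in the other 3. Its difference of -0.14 (adjusted p = 0.572) turned to 0.10 (adjusted p = 0.784) without wild-type library 1, and was -0.38 (adjusted p = 0.0102) without wild-type library 2. No direction can be read for Atg3 from these libraries.

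The remaining conjugation genes differed by at most 0.10 on the log2 scale. Atg5 and Atg12, which are joined to each other by the E2-like Atg10 product, had 43.6 ± 1.08 and 62.2 ± 1.25 CPM in wild type against 41.1 ± 1.35 and 65.6 ± 4.10 CPM without Pml. Atg10 was the lowest member at 1.78, 1.61, 1.99 and 1.78 CPM, and its interval was wide, from -0.25 to 0.45. Atg16l1, which places the ATG12-ATG5 conjugate on the membrane, had 66.6, 65.9, 71.0 and 60.7 CPM (-0.01, adjusted p = 0.948). The protease gene Atg4b, which trims and recycles ATG8 proteins, had 44.7, 44.0, 48.8 and 43.3 CPM (0.05, adjusted p = 0.763). In the last 2 genes knockout libraries 1 and 2 lay on opposite sides of the wild-type values.

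The ATG8 genes held the member with the largest change of the 38. Gabarapl2 (GATE-16), a GABARAP family member that acts late in autophagosome maturation and in Golgi traffic, had 115 and 121 CPM in the wild-type libraries against 99.8 and 89.3 CPM in the knockout libraries. Both knockout libraries were below both wild-type libraries, and the mean was 1.25-fold lower (log2 fold change -0.32, SE 0.059, 95% interval -0.45 to -0.19, limma adjusted p = 0.00518). The gene lies on chromosome 8 at 111940703 to 111952915 (mm10). This call held without each library in turn, where the log2 fold change ranged from -0.40 to -0.24 (highest adjusted p = 0.0437, without knockout library 2), and with edgeR (adjusted p = 0.00807). The authors' deposited table gives it a false discovery rate of 0.000557.

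The other 4 ATG8 genes were not called (0 by edgeR), and they did not share the direction of Gabarapl2. Gabarapl1, a close paralog of Gabarap, was higher in both knockout libraries, at 17.3, 16.7, 19.6 and 19.4 CPM (0.19, adjusted p = 0.268). Gabarap had 86.3, 87.8, 83.1 and 87.2 CPM with overlapping groups (-0.03, adjusted p = 0.815). Of the LC3 genes, Map1lc3b, the source of the LC3-II band used to count autophagosomes, had 82.3, 84.7, 76.5 and 78.2 CPM (-0.11, adjusted p = 0.289). Map1lc3a had 31.4, 29.2, 33.5 and 31.8 CPM (0.10, adjusted p = 0.498). The labels do not say how reads matching more than one paralog were counted, which leaves the split of reads among these similar genes uncertain.

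Chromosome 8 carries 4 of the members, Gabarapl2, Map1lc3b, Lamp1 and Mcoln1, and all 4 had values below 0. So did 481 of the 681 tested genes of that chromosome, against 6480 of all 12710 tested genes. The 681 tested genes of that chromosome had a median log2 fold change of -0.06, against 0.00 for the 12000 tested genes placed elsewhere. On chromosome 8, 52 genes were called lower, among them the stem cell marker Zfp42, and 8 higher. That is 8.81% called, against 5.41% of all tested genes. Both knockout libraries were below both wild-type libraries in 42.4% of its genes, against 25.5% of all tested genes. A value as low as that of Gabarapl2 was found in 33 of the 681 (4.85%) and in 574 of all 12710 tested genes (4.52%). Whether the level of the chromosome has a part in the Gabarapl2 result was not tested.

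**Figure D2:**
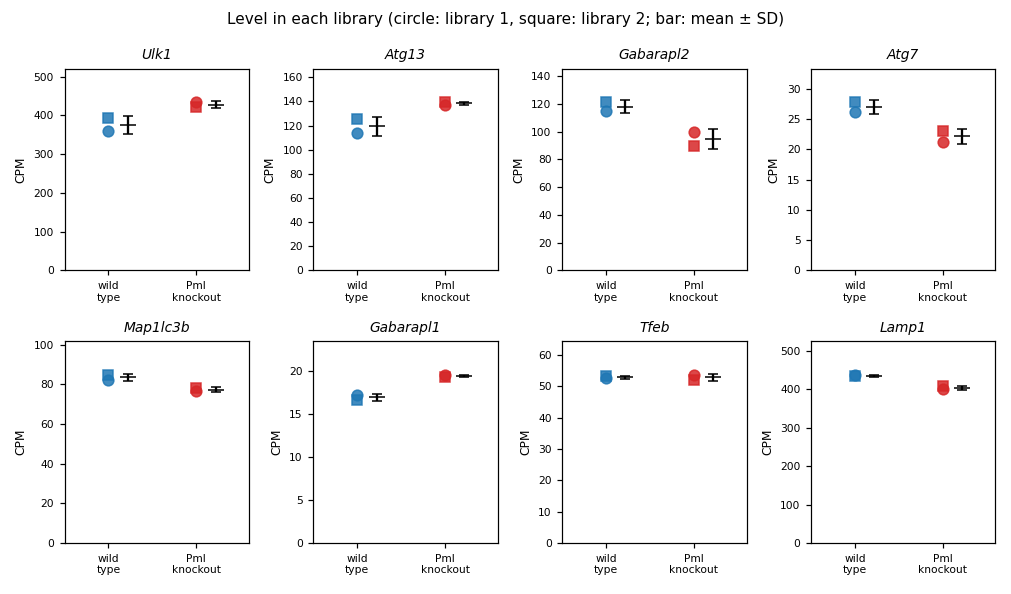
CPM in each library (vertical axis from 0; circles for library 1, squares for library 2; black bars for the mean ± SD, n = 2) for 8 members, with wild type in blue and the Pml knockout in red. Ulk1 and Atg13 are higher and Gabarapl2 lower in both knockout libraries, while the Tfeb libraries, between 52.0 and 53.6 CPM, cannot be told apart by genotype.

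Neither transcription factor gene passed the test. Tfeb, whose protein is held in the cytoplasm by mTORC1 when nutrients are plentiful, had 52.6, 53.2, 53.6 and 52.0 CPM (log2 fold change 0.00, 95% interval -0.13 to 0.13). Tfe3, a relative that also restrains exit from the naive state in embryonic stem cells, had 93.3, 94.8, 97.3 and 105 CPM (0.10, adjusted p = 0.324). Limma called 0 of the 2, with 0 at an unadjusted p under 0.05 and 0 by edgeR. Since both proteins are controlled by their place in the cell, their transcript levels do not measure their activity, and their location was not measured here.

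TFEB and TFE3 bind the CLEAR element, whose core reads TCACGTG and contains the E-box CACGTG, so the promoters of the members were searched for both motifs on both strands. Promoters were the 250 bases before a RefSeq start (GRCm38.p6), which 30 of the 38 members have in the table used. The core was found in 5 of the 30 (16.7%), against 569 of 9671 tested genes with a promoter (5.88%) and 968 of all 27025 (3.58%). By part, 2 of 21 autophagy core promoters and 3 of 7 lysosomal promoters held it, and both factor genes lacked it. The E-box alone was in 7 of the 30 (23.3%) and in 10.1% of the tested genes, and the core always contains it. Windows of 60 bases around the motifs of the 5 genes are shown 5′ to 3′ on the gene's strand, because they are the members with the element before a searched start, with the motif letters in capitals.
Lamp1: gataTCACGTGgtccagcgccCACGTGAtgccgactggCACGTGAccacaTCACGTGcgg
Mcoln1: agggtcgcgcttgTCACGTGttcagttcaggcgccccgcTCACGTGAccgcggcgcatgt
Ctsd: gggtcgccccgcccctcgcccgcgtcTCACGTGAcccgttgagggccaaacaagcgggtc
Atg3: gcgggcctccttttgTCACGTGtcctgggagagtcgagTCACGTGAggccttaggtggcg
Atg7: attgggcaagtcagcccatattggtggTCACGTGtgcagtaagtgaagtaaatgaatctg

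The windows lie at chr8:13159095-13159154 (plus strand) for Lamp1, chr8:3500434-3500493 (plus) for Mcoln1, chr7:142387893-142387952 (minus) for Ctsd, chr16:45158719-45158778 (plus) for Atg3 and chr6:114670936-114670995 (plus) for Atg7. Lamp1 has 4 copies of the E-box in its window, Mcoln1 and Atg3 have 2 and Atg7 has 1. Ctsd has 2 in its 250 bases, of which the one nearer to the start is shown. For Atg7 the start in the table, at 114671096, lies inside the gene, whose annotated first base is 114643127, and the bases before that first base were not searched. A match is a description of the letters and does not show that a factor binds there. None of the 5 genes was called: the log2 fold changes were -0.11 for Lamp1, -0.06 for Mcoln1, -0.03 for Ctsd, -0.14 for Atg3 and -0.28 for Atg7. The called members Ulk1, Atg13 and Gabarapl2 have promoters in the table and hold neither motif in these 250 bases, nor do the other ATG8 genes that have one, Gabarap, Gabarapl1 and Map1lc3b.

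The 9 lysosomal genes gave 0 calls with limma and 0 with edgeR. Of them 4 had an unadjusted p under 0.05 (44.4%, against 19.3% of all tested genes). The groups did not overlap in 7 of the 9 (77.8%, against 49.3%). All 9 had intervals inside 1.3-fold for CPM + 1, the widest bounds being 0.865-fold (Mcoln1) and 1.25-fold (Npc1). Their median log2 fold change was 0.10. Among the membrane proteins, Lamp1 and Lamp2 encode the abundant glycoproteins that coat the inner face of the lysosomal membrane. Lamp1 had 437, 433, 399 and 407 CPM (-0.11, SE 0.042, adjusted p = 0.157), and Lamp2 had 65.6, 67.6, 71.7 and 72.9 CPM (0.12, SE 0.056, adjusted p = 0.272). Each pair of groups was apart, with Lamp1 lower and Lamp2 higher in the knockout. Lamp1 is on chromosome 8 and Lamp2 on chromosome X.

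Mcoln1, the lysosomal calcium channel that feeds back on TFEB, had 35.5, 34.3, 32.6 and 34.5 CPM with overlapping groups (-0.06, adjusted p = 0.734). The pair of cholesterol exporter genes both had an unadjusted p under 0.05. Npc2, which takes cholesterol up in the lumen and hands it on, averaged 188 ± 0.50 CPM in wild type and 207 ± 0.78 CPM without Pml (0.14, SE 0.045, 95% interval 0.05 to 0.24, adjusted p = 0.0852). Npc1, the membrane protein that receives it, had 53.9, 59.3, 65.4 and 63.0 CPM (0.18, SE 0.064, 95% interval 0.05 to 0.32, adjusted p = 0.122). In both genes the knockout libraries lay above the wild-type libraries, and neither passed over all genes.

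The hydrolase genes among the members differed by at most 0.10 on the log2 scale. The aspartic protease gene Ctsd had 342, 348, 341 and 336 CPM (-0.03, adjusted p = 0.776), and the cysteine protease gene Ctsl had 165, 173, 169 and 167 CPM (-0.01, adjusted p = 0.959). Ctsb, another cysteine protease gene, had 121, 124, 131 and 131 CPM (0.10, adjusted p = 0.304). Hexa, the alpha subunit of beta-hexosaminidase A, had 120, 121, 128 and 131 CPM (0.10, SE 0.049, adjusted p = 0.255). Ctsb and Hexa were higher in both knockout libraries, and Ctsl overlapped.

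Beyond the 38 genes, 7 lists of other autophagy and lysosome genes held 201 genes of the table, of which 189 were tested. In them 9 genes rose and 6 fell, 15 in all (7.94%, against 5.41% of all tested genes), with a median log2 fold change of 0.01. Selective autophagy receptors had 1 of 19 higher and none lower: Calcoco2 (NDP52) rose 1.13-fold from 245 ± 12.8 to 278 ± 3.59 CPM. Other autophagy machinery had 1 of 32 higher and 1 lower. Trp53inp2, a shuttling protein that promotes autophagosome formation, rose 1.23-fold from 41.9 ± 0.45 to 51.3 ± 3.48 CPM. Atg9b, the second scramblase gene, fell by 0.56 on the log2 scale, from 4.48 ± 0.15 to 2.71 ± 0.21 CPM (limma adjusted p = 0.0331).

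Genes of the mTORC1 and AMPK pathways, which gate ULK1 and TFEB, had 1 of 36 higher and 1 lower. That is 5.56% called, against 5.41% of all tested genes, so it is near the background. Rragd, the RagD GTPase that brings mTORC1 and TFEB to the lysosome, had 62.5, 71.9, 84.3 and 82.3 CPM (0.31, SE 0.066, limma adjusted p = 0.0118). Deptor, an inhibitor bound to mTOR, fell from 113 ± 0.71 to 95.7 ± 5.02 CPM. Among 10 tested transcriptional regulators of autophagy, such as Foxo3 and Mitf, limma called 0, with 0 at an unadjusted p under 0.05. The V-ATPase, the proton pump that acidifies lysosomes, had 2 of 17 subunit genes higher (11.8% called, against 5.41%) and none lower. These were Atp6v0a1 (83.0, 84.2, 98.3 and 101 CPM, 1.19-fold) and the accessory gene Atp6ap1 (77.6, 75.8, 87.8 and 90.6 CPM, 1.16-fold). The median over the subunits was 0.01.

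**Figure D3:**
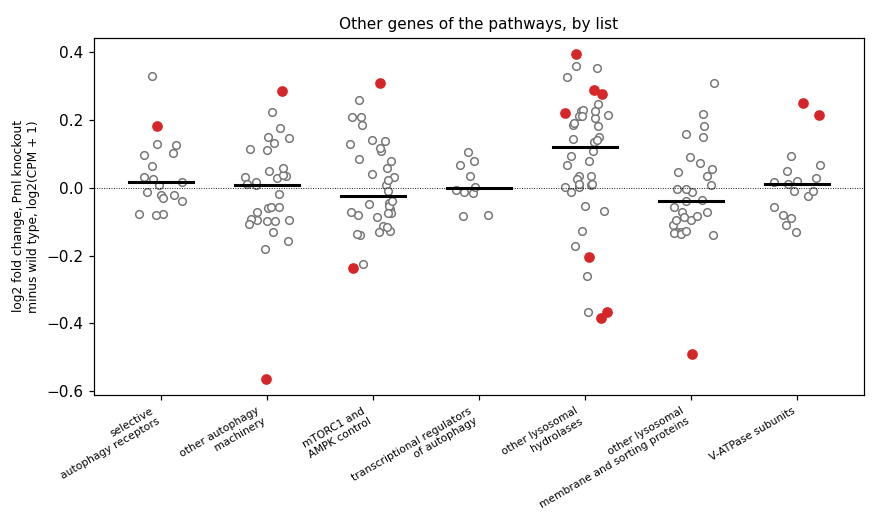
Log2 fold change (Pml knockout minus wild type, log2(CPM + 1) scale, vertical axis) of each tested gene in the 7 lists of other autophagy and lysosome genes, with black bars for list medians and red points for genes with an adjusted p under 0.05. The list of other lysosomal hydrolases has a median of 0.12 and 7 red points, and the medians of the remaining lists lie between -0.04 and 0.02.

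The list of other lysosomal hydrolases and lumen proteins had the highest share of calls of the 7. Of 44 tested, 4 rose and 3 fell (15.9% called, against 5.41% of all tested genes), 21 had an unadjusted p under 0.05 (47.7%, against 19.3%), and 34 were above 0. The median log2 fold change was 0.12, and both knockout libraries were above both wild-type libraries in 26 of the 44 (59.1%, against 23.8%). Of those that rose, 2 are described here. Acp2, lysosomal acid phosphatase, rose from 17.96 ± 2.26 to 23.9 ± 0.77 CPM, and Pcyox1, which degrades prenylcysteines, rose from 67.1 ± 0.11 to 78.3 ± 1.99 CPM.

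Those that fell were a nuclease and a pair of mannosidases. Dnase2a, the acid DNase, fell from 21.5 ± 1.02 to 16.5 ± 2.05 CPM, and Man2b1, alpha-mannosidase, fell 1.15-fold from 79.3 ± 2.27 to 68.7 ± 2.06 CPM. Both lie on chromosome 8, whose part in these values was not tested. Manba, beta-mannosidase, had 108 CPM in wild-type library 1 and 77.8, 70.6 and 69.3 CPM in the other 3 (log2 fold change -0.38, adjusted p = 0.0375). Without wild-type library 1 its difference was -0.15 (adjusted p = 0.412). Leaving out wild-type library 1 reduced the number of called genes of the list from 7 to 3, and leaving out knockout library 1 reduced them to 4. With knockout library 2 left out limma called 0. The number at an unadjusted p under 0.05 dropped from 21 to 13 or 14 when wild-type library 1 or 2 was left out, and to 12 or 16 when knockout library 1 or 2 was. The lowest of these shares was 27.3%, against 19.4% of all tested genes in the same fit. The list's median stayed between 0.09 and 0.11 when each library was left out, with 30 to 33 genes above 0.

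**Figure D4:**
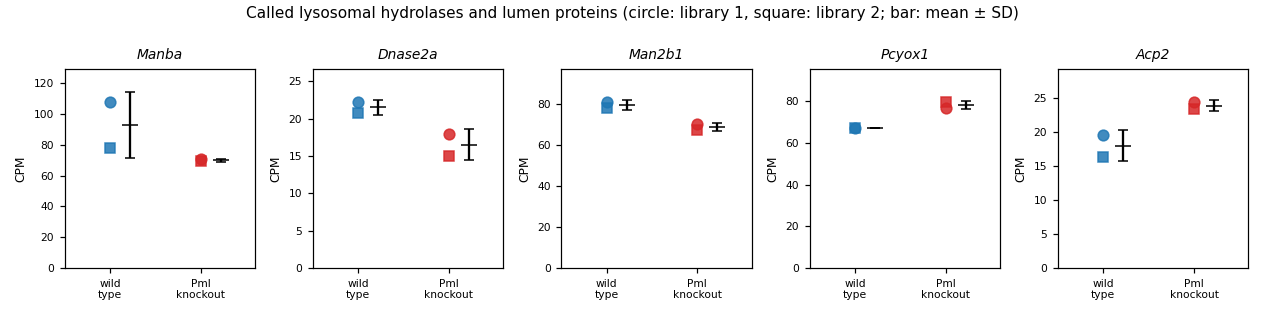
CPM in each library (vertical axis from 0; circles for library 1, squares for library 2; black bars for the mean ± SD, n = 2) for 5 of the 7 called genes of the list of other lysosomal hydrolases, with wild type in blue and the Pml knockout in red. Acp2 and Pcyox1 are higher in both knockout libraries, Dnase2a and Man2b1 are lower, and Manba is set apart by wild-type library 1 at 108 CPM.

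In the list of other lysosomal membrane and sorting proteins, 1 of 31 passed (3.23%, against 5.41% of all tested genes). That gene had the largest fall after Atg9b. Igf2r, the imprinted gene of the cation-independent mannose 6-phosphate receptor that sorts hydrolases to lysosomes, had 138, 168, 115 and 102 CPM, 1.41-fold lower without Pml (-0.49, SE 0.076, limma adjusted p = 0.00141). It was the 1 gene of the 15 whose call held without each library in turn (highest adjusted p = 0.0182). With edgeR 13 of the 15 were also called, and Calcoco2 (adjusted p = 0.0612) and Man2b1 (adjusted p = 0.0607) were not.

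The other 14 calls ended without at least 1 library, and 12 of them are given here with their highest adjusted p in brackets. Rragd (0.146) lost its call without wild-type library 1, and Trp53inp2 (0.184) without knockout library 2. Dnase2a (0.307) and Atp6v0a1 (0.0582) did so when wild-type library 1 or knockout library 2 was left out. Deptor (0.0786) did so when library 1 of either genotype was left out. Calcoco2 (0.378), Atg9b (0.193) and Manba (0.412) did so without any of wild-type library 1 and the 2 knockout libraries. Pcyox1 (0.155) and Atp6ap1 (0.135) did so without either wild-type library or knockout library 2, Acp2 (0.155) without wild-type library 2 or either knockout library, and Man2b1 (0.299) without each of the 4. Over all tested genes of the lists, which can include genes not among these 15, the number called was 5 when wild-type library 1 was left out and 3 when knockout library 2 was.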

How the data were processed

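The deposited table gives, for 4 RNA libraries, CPM values that the authors computed from reads counted per gene, and the authors' edgeR log2 fold change, p-value and false discovery rate. The submitters' processing notes name cutadapt, TopHat, edgeR and the build mm10, and their versions, the annotation and the use of strand are not stated there. The deposited CPM values were whole multiples of 1 read (100% of values within 0.001 reads), which gave the totals printed above.

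From these, limma-trend (limma 3.58.1, R 4.3.3) was fitted to log2(CPM + 1) for genes averaging 1 CPM or more, with a single term for genotype, and p-values were adjusted over all 12710 genes. The script was tested on data simulated with a single setting of spread for all genes. There limma recovered 78% of 50 changes of 1.3-fold, and 5.67% of its calls were false. Changes smaller than 1.3-fold were not simulated. Alternatives were a pseudocount of 0.1, no filter, TMM and DESeq2 (1.42.0) size factors, edgeR (4.0.16) on the recovered reads, a replicate block, and leaving out each library. The members and lists were chosen with earlier results of these data known. All members are named, and of the other lists up to 6 called genes in each direction, except 2 called genes that are not reported here by name. Of the list genes, 5 were matched by an older symbol. Positions and promoters are from RefSeq (GRCm38.p6).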

Additional observations from a re-analysis of the deposited data

How the results depend on the processing

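Of the 38 genes, Gabarapl2 was called under every alternative run. The number of called autophagy core genes was 3, and 1 with no filter, with TMM scaling and with edgeR, and it ranged from 1 to 4 when each library was left out. Such fits leave 1 library in a genotype, which is assumed to vary like those of the other. Without wild-type library 1, or without knockout library 1, it was 1. The number of called lysosomal members was 0 throughout. The count for other hydrolases, recomputed after the data were seen, was 7 and became 2 with no filter and ranged from 0 to 5 without single libraries. The number of calls in the other lists, 15, became 4 with no filter and ranged from 3 to 13 without single libraries. Over all genes 687 calls became 298 with no filter and ranged from 367 (without knockout library 2) to 869 (without wild-type library 2).

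Replicate numbers are shared by the groups, and whether they pair the libraries is not stated in the labels. With 2 numbers there is 1 correlation of deviations, 0.12, a single value that cannot decide this. With the replicate block 1198 genes were called over all genes, 4 of the autophagy core, 0 lysosomal members, 10 of the other hydrolases and 20 of the other lists, and Atg7 was called (adjusted p = 0.0241).

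Signs turned only for members near 0 or with 1 library apart, none of them called in either fit. With DESeq2 size factors Pik3c3 was 0.0019 and Tfeb 0.0041, and with edgeR Tfeb was 0.0001. Leaving out single libraries gave these ranges of log2 fold change: Pik3c3 -0.0354 to 0.0260, Becn1 -0.1191 to 0.0145, Atg9a -0.0702 to 0.1118, Atg2a -0.0790 to 0.0345, Atg2b -0.0283 to 0.0509, Atg3 -0.3845 to 0.1035, Atg4b -0.0336 to 0.1331, Atg16l1 -0.1241 to 0.0986, Gabarap -0.0649 to 0.0030, Tfeb -0.0235 to 0.0184 and Ctsl -0.0420 to 0.0282. Low genes such as Atg10, with 127 reads in wild type and 154 in the knockout, had wide intervals.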

Other observations

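Atp6v0c, which encodes the membrane ring subunit of the V-ATPase, stood at 0.16, 0.27, 0.29 and 0.16 CPM, 17 reads in wild type and 18 in the knockout, while the other ring subunit gene, Atp6v0b, averaged 92.7 and 87.1 CPM. It was below the filter in both genotypes and was singled out after its values were seen. The counting of reads that match several places in the genome is not described in the labels.

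Bnip3, a mitophagy receptor gene that hypoxia induces, lay just outside the threshold and was also singled out after its values were seen. It had 17.9, 16.8, 20.7 and 23.5 CPM, a log2 difference of 0.33 (SE 0.093, limma adjusted p = 0.053).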
